A study of Homo sapiens with 6 samples.

Results

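The immediate early genes of the AP-1 and EGR families were described in human pluripotent cells and in the neuromesodermal progenitor-like (NMP-L) cells made from them. The members are the 4 FOS genes (FOS, FOSB, FOSL1 and FOSL2), the 3 JUN genes (JUN, JUNB and JUND) and 3 EGR genes (EGR1, EGR2 and EGR3). They were taken by gene symbol, with earlier results of these data known, and are 10 of the 27672 genes in the table. RNA-seq of polyadenylated RNA was available for 3 biological replicates of hESCs at day 0 (H9, an established embryonic stem cell line), and for 3 of NMP-L cells at day 3. According to the labels, the untreated hESCs were kept without feeder cells on fibronectin in DEF medium, to which bFGF (30 ng/ml) and the BMP inhibitor Noggin (10 ng/ml) were added. NMP-L cells were H9 cells held for 3 days in N2/B27 (Neurobasal) medium that held bFGF at 20 ng/ml and, at 3 µM, CHIR99021, an inhibitor of GSK3 that activates Wnt signalling. The paper's Methods name another medium and coating for the undifferentiated cells. They also add Noggin and the TGF-beta receptor inhibitor SB431542 over a span that begins before day 3 and ends after it. Medium, growth factors and day changed together, so their parts in any difference cannot be told apart, and the time between the last medium change and lysis is not given in the sources used here.

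FOS and JUN proteins are basic leucine zipper factors. FOS proteins bind DNA as dimers with JUN proteins, JUN proteins also pair with each other, and these AP-1 dimers recognise the sequence TGANTCA. EGR proteins are zinc finger factors that bind GC-rich DNA. Many of these genes are transcribed within minutes of growth factor signalling, since ERK phosphorylates ternary complex factors such as ELK1, which sit with SRF on CArG boxes in the promoters. FGF signalling through ERK acts both in pluripotent cells and in the caudal epiblast, whose progenitors NMP-L cells model. The genes have few exons. In the annotation's canonical transcripts JUN, JUNB and JUND have 1 exon each, the EGR genes 2 and the FOS genes 4.

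Promoter sequence was available for 8 of the 10 members (RefSeq, GRCh38.p14), and FOSL1 and EGR3 had no entry. The 250 bases before the start site are shown for EGR1, the most abundant EGR transcript, EGR2 (promoter 3 of the 3 listed), which had the largest fitted fall, JUN and JUND, which fell by different amounts, and FOS, which did not pass the test. For FOSL2, which rose, the first 20 bases after the start are shown, since its match lies there. All are written 5′ to 3′ with each motif match in capitals.
EGR1, chr5:138465229-138465478 (plus strand): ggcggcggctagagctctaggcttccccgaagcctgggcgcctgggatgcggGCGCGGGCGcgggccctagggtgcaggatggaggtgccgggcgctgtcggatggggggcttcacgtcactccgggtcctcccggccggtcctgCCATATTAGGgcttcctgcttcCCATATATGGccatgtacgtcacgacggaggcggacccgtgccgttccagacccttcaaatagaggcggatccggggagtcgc
EGR2, promoter 3, chr10:62816367-62816616 (minus strand): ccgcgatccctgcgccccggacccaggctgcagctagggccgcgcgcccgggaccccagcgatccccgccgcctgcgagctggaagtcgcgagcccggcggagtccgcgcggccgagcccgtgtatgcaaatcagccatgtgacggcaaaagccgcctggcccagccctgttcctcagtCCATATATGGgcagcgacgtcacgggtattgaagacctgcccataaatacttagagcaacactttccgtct
JUN, chr1:58784048-58784297 (minus strand): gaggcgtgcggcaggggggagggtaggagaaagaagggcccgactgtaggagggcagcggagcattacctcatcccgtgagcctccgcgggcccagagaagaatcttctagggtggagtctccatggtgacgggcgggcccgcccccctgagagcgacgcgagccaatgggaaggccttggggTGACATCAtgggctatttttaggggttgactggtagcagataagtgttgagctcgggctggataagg
JUND, chr19:18281623-18281872 (minus strand): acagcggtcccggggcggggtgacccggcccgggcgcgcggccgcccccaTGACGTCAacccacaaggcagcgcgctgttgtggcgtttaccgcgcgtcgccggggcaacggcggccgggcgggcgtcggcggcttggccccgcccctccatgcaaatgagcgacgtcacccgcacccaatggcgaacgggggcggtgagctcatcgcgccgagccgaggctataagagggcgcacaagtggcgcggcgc
FOS, chr14:75278578-75278827 (plus strand): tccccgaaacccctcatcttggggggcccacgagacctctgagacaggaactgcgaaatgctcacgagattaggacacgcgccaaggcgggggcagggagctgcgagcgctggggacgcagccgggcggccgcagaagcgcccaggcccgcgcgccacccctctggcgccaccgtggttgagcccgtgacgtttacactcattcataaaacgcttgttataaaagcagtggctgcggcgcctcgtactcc
FOSL2, chr2:28392858-28392877 (plus strand): gtagTGACTCAtctcgggca

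Each promoter, from 250 bases before to 50 after the start, was searched for 4 motifs on both strands, and positions are counted in bases from the start site. The EGR1 promoter held 2 CArG boxes, at -105 to -96 and at -83 to -74, and an EGR site (GCGNGGGCG) at -198 to -190. A CArG box was found in 1.29% of 35114 human promoters of this length and an EGR site in 9.43%. EGR2 promoter 3 held a CArG box at -71 to -62, and EGR2 promoter 2 an EGR site at 9 to 17. CRE-like sites (TGACNTCA, in 7.72% of promoters) were found in JUN, as TGACATCA at -67 to -60, and in JUND, as TGACGTCA at -200 to -193. The AP-1 site TGANTCA, found in 7.71% of promoters, was matched in FOSL2 at 5 to 11. The FOS, FOSB and JUNB windows held no match, and nor did EGR2 promoter 1. Sites outside the window, or that depart from these patterns, were not searched for, so no match does not mean that a gene lacks the element. The motifs do not overlap each other in these windows, and a match is a description of the sequence, not a bound site.

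**Figure D1:**
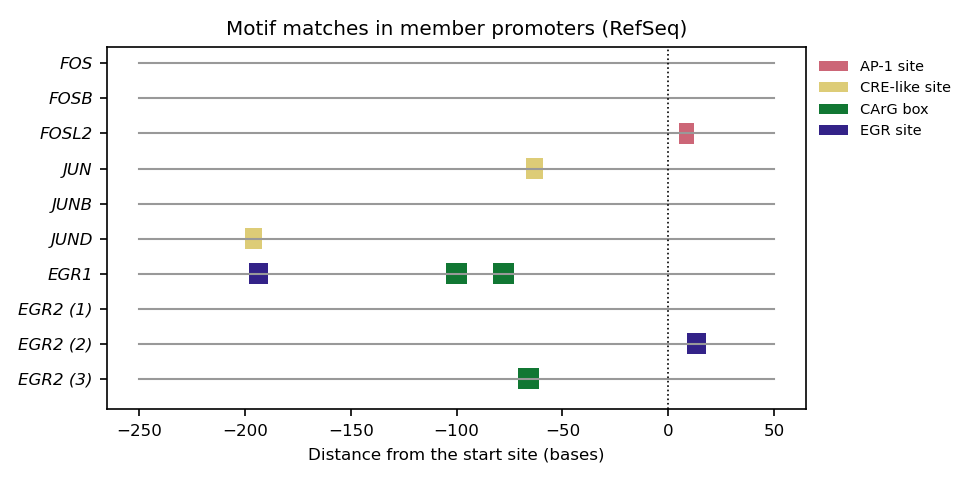
Motif matches along the promoters of 8 members, with distance from the start site in bases on the x axis and coloured blocks for the 4 motifs. EGR1 carries 3 matches, more than any other promoter drawn.

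Depth ranged from 19454543 to 23036426 expected counts a library, and 15517 genes passed the filter on low counts, all 10 members among them. Checked against markers, all 8 pluripotency markers listed were lower in NMP-L cells, with NANOG at a log2 fold change of -2.59. Of 9 NMP markers 8 were tested, of which 6 were higher, SOX2 was not called and FGF17 was lower. T, a transcription factor of the primitive streak and NMPs, had 0, 0 and 2 counts in hESCs and 537, 293 and 629 in NMP-L cells, and replicate 2 of the NMP-L cells was the lowest of the 3. No endoderm marker of 6 passed the filter (summed level 0.907 to 1.83 CPM in hESCs and 0.942 to 1.38 in NMP-L cells), and SOX17 was at 0 or 1 count in every library. Of the 6 mesoderm markers 2 were higher and 1 lower (6.08 to 8.59 against 11.3 to 11.4 CPM). The 6 neural and neural crest markers held 1 higher and 2 lower (26.4 to 31.4 against 13.1 to 16.9 CPM). Most of that hESC sum was FOXD3 (20.2, 19.4 and 24 CPM), which was lower in NMP-L cells, as was SOX10. Most of the NMP-L sum was SOX1, at 0.374, 0.668 and 0.209 CPM in hESCs and 12.7, 9.39 and 11.4 CPM in NMP-L cells. The 6 fibroblast markers summed to 1.13e+03 to 1.28e+03 CPM in hESCs and 170 to 187 in NMP-L cells, nearly all of it COL1A1 and COL1A2, while DCN and LUM were at 0 or 1 count in every library. The part of any other cell type in the members' levels was not tested.

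Compared with hESCs, 7 members were lower in NMP-L cells (FOSB, JUN, JUNB, JUND, EGR1, EGR2 and EGR3), 1 was higher (FOSL2), and FOS and FOSL1 did not pass the test. EGR1 was 2.62-fold and EGR2 4.22-fold lower, and both passed in every alternative setting that could test them. JUN was 1.85-fold lower. Many genes changed between these cells: of all tested genes 55.8% were called, 29.1% higher and 26.7% lower (edgeR's quasi-likelihood test, adjusted p under 0.05). The members' count of 7 lower in 10 stands beside that 26.7%, and their count of 1 higher beside the 29.1%. Relative to GAPDH counts 2 members were lower and 3 higher, and relative to HPRT1 counts 8 were lower and 0 higher. The median log2 fold change was -0.81 over the members and 0.03 over all tested genes. Of the members, 4 were called and at least 2-fold lower, against 9.18% of all tested genes, and 0 were at least 2-fold higher, against 9.38%. The libraries of the conditions did not overlap for 8 members, 7 of them lower and 1 higher, beside 61.6% of all tested genes (29.5% lower and 32.1% higher), and each of the 8 had an exact permutation p of 0.1, the smallest that 3 against 3 libraries allow. In bulk RNA, fewer cells with a transcript and less of it per cell cannot be told apart.

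**Figure D2:**
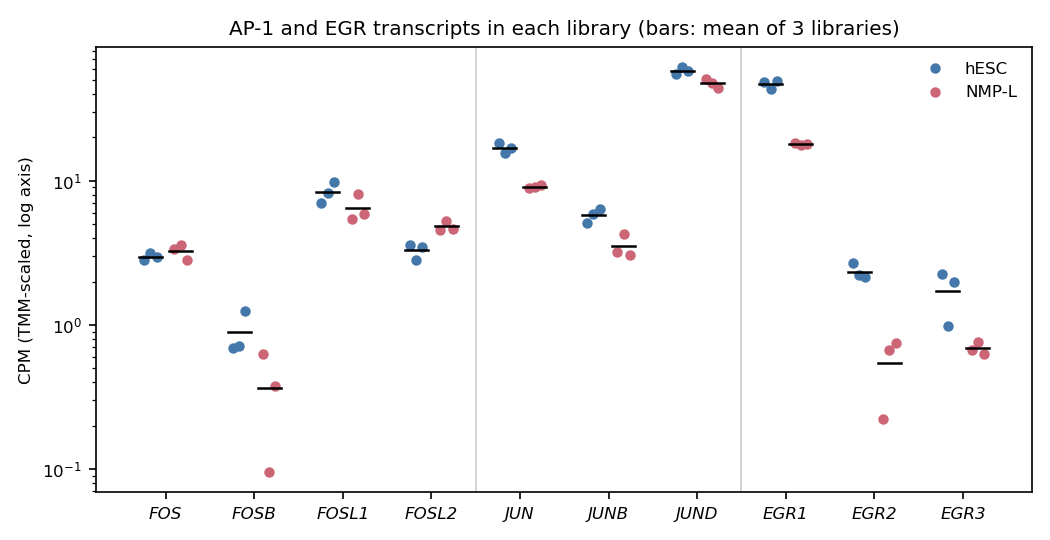
Level of each member in every library, as CPM (counts relative to the library size, scaled by TMM factors) on a log axis, with hESCs in blue, NMP-L cells in red and a black bar at the mean of 3 libraries. The red points lie wholly below the blue ones for 7 members and wholly above them for FOSL2, and the 2 colours overlap for FOS and FOSL1.

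All 3 EGR genes fell, and kept that direction in every setting. EGR1, on chromosome 5 (GRCh37 chr5:137801168-137804992, plus strand), encodes the best known EGR factor. Its level was 48.5, 43.5 and 49.1 CPM in hESCs and 18.2, 17.7 and 17.9 CPM in NMP-L cells. The NMP-L libraries lay close together and far below the lowest hESC library. The log2 fold change was -1.39 (SE 0.10, 95% interval -1.60 to -1.18, adjusted p = 3.2e-07), and the fall passed the test under all 16 alternative settings. At 371 to 428 counts in each NMP-L library, EGR1 was still well above the floor of 3 counts.

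EGR2, a factor of hindbrain segments and myelinating Schwann cells (GRCh37 chr10:64571756-64578927, minus strand), was rare in both conditions. It had 50, 43 and 41 counts in hESCs and 5, 14 and 18 in NMP-L cells, which is 2.67, 2.21 and 2.14 CPM against 0.224, 0.667 and 0.752 CPM. The conditions did not overlap, and replicate 1 of the NMP-L cells was the lowest. The log2 fold change was -2.08 (SE 0.34, 95% interval -2.83 to -1.33, adjusted p = 0.00033). EGR3, which lies on chromosome 8, had 42, 19 and 38 counts in hESCs and 15, 16 and 15 in NMP-L cells, or 2.24, 0.977 and 1.98 CPM against 0.673, 0.763 and 0.627 CPM. Replicate 2 of the hESCs came near the NMP-L level but stayed above it. Its log2 fold change was -1.33 (SE 0.34, 95% interval -2.07 to -0.59, adjusted p = 0.00562). An unnamed gene overlaps EGR3 on the opposite strand and another overlaps EGR2 on the same strand. Their reads may not be separable from those of the members. With so few counts, the sizes of the EGR2 and EGR3 falls are known less well than that of EGR1, as their intervals show.

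All 3 JUN genes were lower in NMP-L cells, by unequal amounts, although JUND turned higher relative to GAPDH counts. JUN, the founding member and the partner of FOS (GRCh37 chr1:59242517-59249720, minus strand), was at 18.2, 15.6 and 16.8 CPM in hESCs and 8.93, 9.05 and 9.32 CPM in NMP-L cells. The conditions were clearly apart, with a log2 fold change of -0.89 (SE 0.11, 95% interval -1.14 to -0.64, adjusted p = 4.4e-05). JUNB, which often opposes JUN on proliferation genes (GRCh37 chr19:12902300-12904129, plus strand), was at 5.07, 5.91 and 6.42 CPM in hESCs and 3.19, 4.29 and 3.05 CPM in NMP-L cells. Its highest NMP-L library, replicate 2, stayed below the lowest hESC library. The log2 fold change was -0.73 (SE 0.18, 95% interval -1.12 to -0.34, adjusted p = 0.00441). The JUNB gene overlaps HOOK2 on the opposite strand, which itself had a log2 fold change of -0.54 (adjusted p = 0.00226). The strand setting of the counting is not given in the sources used here. It is therefore not known whether reads of HOOK2 were counted for JUNB, and the JUNB value is uncertain. The JUNB counts held no fraction.

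JUND, the JUN gene that most cell types express without a stimulus (GRCh37 chr19:18390504-18392432, minus strand), was the most abundant member. It was at 54.6, 61.3 and 57.4 CPM in hESCs and 50.5, 48 and 44.2 CPM in NMP-L cells. The conditions did not overlap, but the gap between them was narrow. Its log2 fold change of -0.28 (SE 0.09, 95% interval -0.48 to -0.08, adjusted p = 0.021) is a 1.21-fold fall. The call was lost with library sizes alone (adjusted p = 0.0702) and without NMP-L replicate 2 (0.0584), NMP-L replicate 3 (0.0733), hESC replicate 2 (0.0585) or hESC replicate 3 (0.0529), and relative to GAPDH counts the sign turned (0.27, adjusted p = 0.0276).

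The FOS genes did not move as a group. FOS itself, the classic early response gene (GRCh37 chr14:75745529-75748933, plus strand), was at 2.83, 3.14 and 2.97 CPM in hESCs and 3.37, 3.57 and 2.84 CPM in NMP-L cells. The libraries of the conditions overlapped. The log2 fold change was 0.13 (SE 0.18, 95% interval -0.27 to 0.52, adjusted p = 0.57). Relative to GAPDH counts it was 0.68 and passed (adjusted p = 0.00448), and relative to HPRT1 counts the sign turned (-0.17, adjusted p = 0.666). A missed threshold does not show that FOS was equal in the conditions.

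FOSL2, also called FRA2, lacks the strong activation domain of FOS (GRCh37 chr2:28615315-28640184, plus strand). It had 67, 55 and 67 counts in hESCs and 102, 111 and 111 in NMP-L cells, which is 3.58, 2.83 and 3.5 CPM against 4.58, 5.29 and 4.64 CPM. Every NMP-L library was above every hESC library. The log2 fold change was 0.55 (SE 0.17, 95% interval 0.19 to 0.91, adjusted p = 0.0143), a 1.46-fold rise. It no longer passed without NMP-L replicate 2 (adjusted p = 0.0511), the library with the fewest T counts, or without hESC replicate 2 (0.0563), and relative to HPRT1 counts it was 0.26 (adjusted p = 0.454). FOSL2 overlaps the antisense gene FOSL2-AS1 and an unnamed gene on the same strand, neither of them among the genes of the table. With the strand setting not given, it is not known whether reads of FOSL2-AS1 were counted for FOSL2. Reads of the unnamed gene may not be separable from those of FOSL2.

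FOSL1, or FRA1 (GRCh37 chr11:65659520-65668044, minus strand), was at 7.05, 8.23 and 9.76 CPM in hESCs and 5.47, 8.1 and 5.89 CPM in NMP-L cells. Replicate 2 of the NMP-L cells reached into the hESC range. The log2 fold change was -0.37 (SE 0.18, 95% interval -0.75 to 0.02, adjusted p = 0.0974), and without NMP-L replicate 2 it was -0.55 (adjusted p = 0.0214). It also passed without hESC replicate 1, at -0.50 (adjusted p = 0.0317), and relative to GAPDH counts its sign turned. FOSB, a stimulus-induced gene with a stable shorter form in neurons (GRCh37 chr19:45971253-45978437, plus strand), had 13, 14 and 24 counts in hESCs and 14, 2 and 9 in NMP-L cells. Scaled for depth, these were 0.694, 0.72 and 1.25 CPM against 0.628, 0.0953 and 0.376 CPM, so the lowest hESC and highest NMP-L libraries nearly met, and NMP-L replicate 2 lay under the floor of 3 counts. Its log2 fold change was -1.25 (SE 0.49, 95% interval -2.32 to -0.18, adjusted p = 0.0473). The FOSB call was lost in 9 of 15 alternative settings, among them without NMP-L replicate 2 (-0.83, adjusted p = 0.126), NMP-L replicate 3 (0.101), hESC replicate 2 (0.0623) or hESC replicate 3 (0.206), and the gene overlaps ERCC1 on the opposite strand with the same uncertainty about strand.

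**Figure D3:**
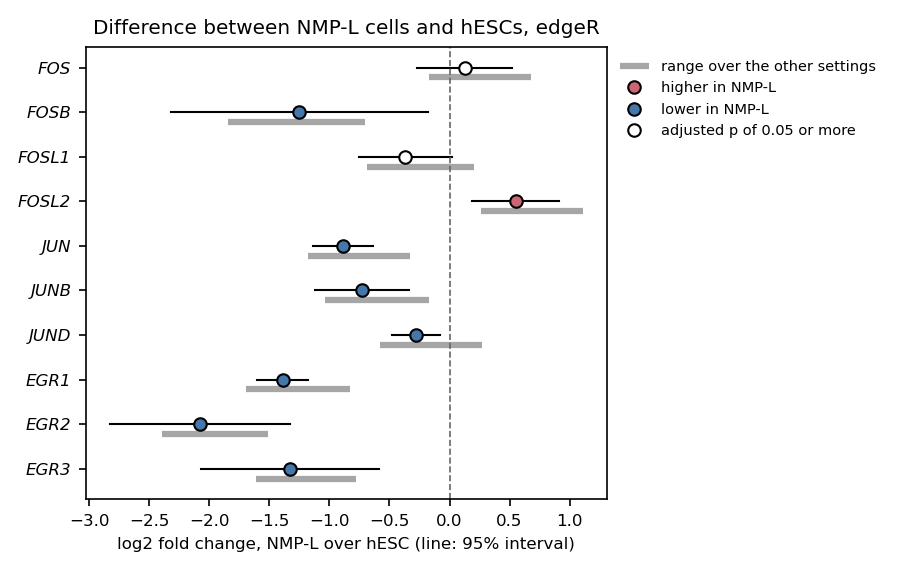
Log2 fold change of each member, NMP-L over hESC, with its 95% interval as a black line and the range over the alternative settings as a grey bar, filled red or blue where the adjusted p was under 0.05. EGR1, EGR2, EGR3, JUN, JUNB and FOSB stay below 0 in every setting and FOSL2 above it, while the grey bars of FOS, FOSL1 and JUND cross 0, the bars of FOSL1 and JUND through scaling to GAPDH and that of FOS through scaling to HPRT1.

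The scaling matters for the small changes. GAPDH itself had a log2 fold change of -0.55 (adjusted p = 0.00014) and HPRT1 one of 0.28 (adjusted p = 0.0689). Relative to GAPDH counts the median of all tested genes moved from 0.03 to 0.59, and relative to HPRT1 counts to -0.27. Such scaling shifts all genes by nearly the same amount, so a member's place relative to the median gene could hardly change and is not separate evidence. The GAPDH-scaled values of JUN (-0.33), JUNB (-0.17) and JUND (0.27) lay below the median gene, as in the reported fit. FOS, at 0.68 relative to GAPDH counts, and FOSL2 lay above it.

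Levels of different genes were compared as TPM, which takes transcript length into account. In hESCs the order from high to low was JUND (mean 61.6 ± 2.4 TPM, SD, n = 3), EGR1 (30.8 ± 2.53), FOSL1 (11.2 ± 1.77), JUN (10.4 ± 1.01), JUNB (6.71 ± 0.745), FOS (2.87 ± 0.0902), FOSL2 (1.69 ± 0.242), EGR2 (1.68 ± 0.271), EGR3 (0.85 ± 0.333) and FOSB (0.48 ± 0.173). The ranges of FOSL1 and JUN overlapped, as did those of FOSL2 and EGR2, and of EGR3 and FOSB. In NMP-L cells the order by mean was the same, with JUND at 54.2 ± 2.06 TPM, EGR1 at 12.6 ± 0.462, FOSL1 at 9.35 ± 1.96, JUN at 6.01 ± 0.34, JUNB at 4.33 ± 0.751, FOS at 3.36 ± 0.284 and FOSL2 at 2.64 ± 0.19. EGR2 (0.423 ± 0.221 TPM), EGR3 (0.36 ± 0.052) and FOSB (0.217 ± 0.15) followed, and the ranges of EGR2 and EGR3, and of EGR3 and FOSB, overlapped. FOS and JUN differed in abundance in both conditions, and JUND exceeded every other member.

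Summed over its members, the JUN family held 76.6, 80.1 and 79.3 TPM in hESCs and 66.2, 64.7 and 62.9 TPM in NMP-L cells. The EGR genes summed to 35.4, 29.8 and 34.8 TPM against 13, 13 and 14 TPM, and the FOS family to 14.9, 15.2 and 18.5 TPM against 14.2, 18.1 and 14.4 TPM. The JUN and EGR sums did not overlap between conditions (exact permutation test, two-sided p = 0.1 each), while the FOS sums did (exact p = 0.5). JUND makes up most of the JUN sum and EGR1 most of the EGR sum, so the sums are not separate evidence.

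Within the FOS family, FOSL1 gave the largest share of TPM in both conditions, 68.7% ± 2.41 (SD, n = 3) in hESCs and 59.7% ± 4.01 in NMP-L cells. The share of FOSL2 was 12.5%, 9.28% and 9.65% in hESCs and 17.3%, 15.6% and 18.3% in NMP-L cells, and that of FOS was 17.9% ± 2.09 against 21.7% ± 2.08. Each of these 3 shares was without overlap between the conditions (exact permutation test, p = 0.1). That of FOS was so only narrowly, at 19.5% in hESC replicate 2 and 19.9% in NMP-L replicate 2. Shares of a family are parts of the same total, so they are not separate evidence. With shares of summed CPM in place of TPM, the FOS share overlapped (20%, 21% and 17% against 24%, 20.9% and 20.7%, exact permutation p = 0.3), and the FOSL2 difference was 11 percentage points in place of 6.61. Within the JUN family, JUND took 78.2% ± 1.45 in hESCs and 84% ± 1.3 in NMP-L cells, and JUN 13.3% ± 1.59 against 9.32% ± 0.761, again without overlap (exact permutation p = 0.1). The JUN family total was smaller in NMP-L cells and JUND held more of it. Of the EGR transcripts, EGR1 was 92.5% ± 1.09 in hESCs and 94.1% ± 1.68 in NMP-L cells, a difference within the spread (exact permutation p = 0.3).

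**Figure D4:**
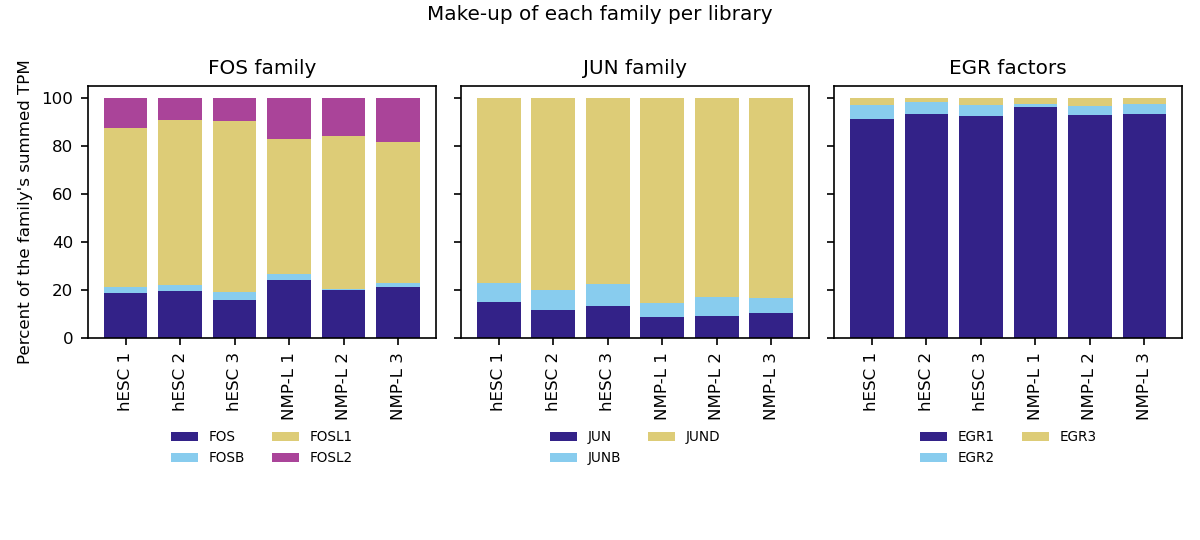
Make-up of the FOS family, the JUN family and the EGR genes in each of the 6 libraries, as percent of the family's summed TPM. The FOSL2 part is larger, and the JUN part smaller, in every NMP-L library than in every hESC library.

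By a rule on the pattern over the 6 libraries, the genes most like 3 of the members were named, among 11659 genes with a mean of at least 5 CPM. The measure was the root mean square difference of centred log2 CPM. Closest to EGR1 were SNHG14 (0.037), OSBPL10 (0.0374) and BTN3A2 (0.048). Closest to JUN were LAPTM4B (0.0207), AKIRIN1 (0.0296) and ZFAND5 (0.0354), and closest to FOS were RPS4X (0.0198), PRMT5 (0.0238) and NME1 (0.0251). Their log2 fold changes, at -1.40 for SNHG14, -0.87 for LAPTM4B and 0.13 for RPS4X, were near that of the member. The rule itself selects for this, so it is not a separate result.

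Other immediate early genes moved in both directions. Of 26 listed, 23 were tested, of which 12 were lower, 4 higher and 7 not called, with a median log2 fold change of -0.48 (0.03 over all tested genes). These are 52.2% lower and 17.4% higher, beside 26.7% and 29.1% of all tested genes. Relative to GAPDH counts 10 of them were higher. CYR61, a secreted matricellular protein, fell from 80.5, 67.9 and 82.5 CPM in hESCs to 8.48, 9.96 and 9.48 CPM in NMP-L cells, a log2 fold change of -3.05 (adjusted p = 3.3e-09). MYC, the growth-promoting factor, fell from 62.1, 63 and 64.8 CPM to 15.8, 15.8 and 15.3 CPM, a log2 fold change of -2.02 (adjusted p = 1e-08). In the other direction, NR4A1, an orphan nuclear receptor, was at 7.31, 9.05 and 9.97 CPM in hESCs and 39.6, 38.8 and 30.3 CPM in NMP-L cells. BTG2, an antiproliferative gene, was at 4.96, 4.68 and 5.79 CPM against 25.4, 26 and 24.4 CPM. These are log2 fold changes of 2.04 (adjusted p = 4.6e-07) for NR4A1 and 2.29 (4.3e-08) for BTG2. The remaining higher genes, named after their values were seen, were IER5 (1.23, adjusted p = 3.1e-06) and DUSP1 (0.35, 0.039), a phosphatase of MAP kinases. EGR4, with 2, 5 and 5 counts in hESCs and 3, 2 and 3 in NMP-L cells, was too low to test, as were NPAS4 and NR4A2.

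**Figure D5:**
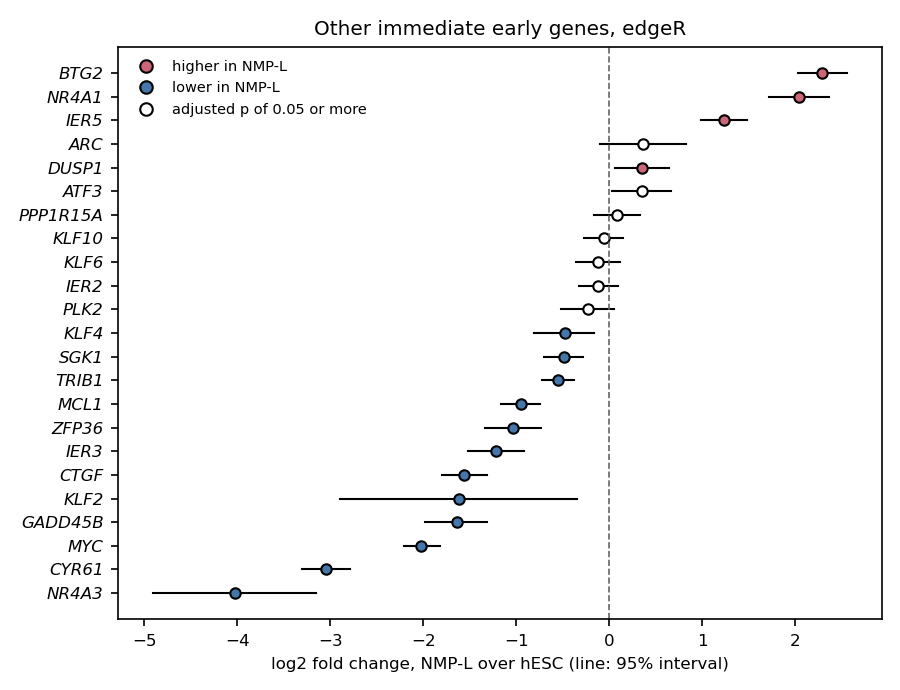
Log2 fold change, NMP-L over hESC, of the 23 tested immediate early genes outside the AP-1 and EGR families, with 95% intervals and with calls in red (higher) and blue (lower). BTG2 and NR4A1 stand at the top and CYR61 and NR4A3 at the bottom; NR4A3 had 3, 1 and 2 counts in NMP-L cells, so its fitted value depends on the fit's prior count.

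Among the 12 other leucine zipper partners listed, 11 were tested, with 5 lower, 4 higher (45.5% and 36.4%, beside 26.7% and 29.1% of all tested genes) and a median of -0.37 (1 lower relative to GAPDH counts and 1 higher relative to HPRT1 counts). MAFK, a small MAF protein without an activation domain, was lower (-0.92, adjusted p = 2.9e-05), and ATF7 (0.64, 0.00014) and MAFG (0.40, 0.00466) were higher. Also called, and named after their values were seen, were MAF and BATF2 among the higher, and MAFF, BATF3 and JDP2 among the lower. JDP2 is a repressor that pairs with JUN.

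A further list held inducers of early genes, namely SRF and its cofactors, CREB1, ATF1 and the RPS6KA kinases. The median was -0.06 over its 14 tested genes, of which 9 did not pass. The others were 3 higher and 2 lower (21.4% and 14.3% of those tested, beside 29.1% and 26.7% of all tested genes). Among them the largest called changes were those of MKL2 (0.38, adjusted p = 0.0108), RPS6KA1 (-0.36, 0.007) and ELK3 (0.32, 0.0316). The other calls, named after their values were seen, were RPS6KA4 (0.27) and MKL1 (-0.31). SRF, the factor that binds CArG boxes, was at 92.6, 92.1 and 88.7 CPM in hESCs and 91.9, 85.8 and 83.2 CPM in NMP-L cells, which overlap (log2 fold change -0.07, 95% interval -0.24 to 0.10, adjusted p = 0.486). The list's calls depended on the scaling, with 9 higher and 0 lower relative to GAPDH counts, and 0 higher and 4 lower relative to HPRT1 counts. Without NMP-L replicate 2 or hESC replicate 3, 1 was higher and 1 lower, and without NMP-L replicate 3 or hESC replicate 2, 1 was lower.

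Of 10 tested regulators of the member proteins, 3 were higher, 3 lower and 4 not called (median 0.06), shares close to those of all tested genes (29.1% higher and 26.7% lower). NAB2, a corepressor that EGR1 induces and that binds EGR proteins, was at 33.3, 31.9 and 36.7 CPM in hESCs and 19.8, 19.6 and 21.1 CPM in NMP-L cells. Its libraries did not overlap, and its log2 fold change was -0.75 (SE 0.10, adjusted p = 6.3e-05). Its paralogue NAB1 was at 24.4, 19.3 and 22.2 CPM against 18.2, 21.9 and 24.1 CPM, with overlap (log2 fold change -0.04, 95% interval -0.33 to 0.25, adjusted p = 0.818). MAP2K7, a kinase upstream of JNK (-0.37, adjusted p = 0.00514), and FBXW7, a ubiquitin ligase subunit that targets JUN (-0.34, 0.0139), were lower. MAPK10 (0.58), MAP2K4 (0.25) and RFWD2 (0.23), named after their values were seen, were higher, but the higher count was 0 without NMP-L replicate 3 or hESC replicate 3, and 1 without NMP-L replicate 1, NMP-L replicate 2 or hESC replicate 2. Scaled to GAPDH, 7 regulators were higher and 0 lower, whereas 0 were higher when scaled to HPRT1.

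Of 17 genes often named as AP-1 or EGR targets, 13 were tested and all 13 were called, 7 lower and 6 higher (median -0.38), where 55.8% of all tested genes were called, 26.7% lower and 29.1% higher. CD44, a hyaluronan receptor, rose from 11.8, 14.9 and 11.8 CPM in hESCs to 40.4, 48.7 and 42.1 CPM in NMP-L cells (log2 fold change 1.77, adjusted p = 4.1e-07). F3, tissue factor, was lower (-0.90, adjusted p = 9.7e-05), as was TGFB1 (-0.77, adjusted p = 5.4e-05). The largest called changes of the list were falls, of PDGFB (-2.51, adjusted p = 1.8e-06) and MMP9 (-2.50, 2.7e-06). Their means were under 10 CPM in both conditions, and they were named after their values were seen. Relative to GAPDH counts 3 targets were lower, and relative to HPRT1 counts 1 was higher.

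Heat shock genes were counted because early genes can respond to handling of the cells. Of 12 tested, 5 were lower and 2 higher (41.7% and 16.7%, beside 26.7% and 29.1% of all tested genes), with a median of -0.08. The calls outside the naming rule, named after their values were seen, were BAG3 and HSPA8 (higher) and HSP90AA1 and HSP90AB1 (lower). Scaled to GAPDH, 8 of these genes were higher and 2 lower, whereas 0 were higher when scaled to HPRT1. The higher count was 1 without NMP-L replicate 1, NMP-L replicate 2, hESC replicate 1 or hESC replicate 3. HSPA1A was at 71.1, 80.2 and 78.8 CPM in hESCs and 37.9, 32.2 and 27.2 CPM in NMP-L cells, a log2 fold change of -1.24 (adjusted p = 4.7e-06). HSPB1 (-0.88, adjusted p = 3.8e-05) and HSPA1B (-0.70, 2.5e-05) were also lower, and HSPA1A and HSPA1B are near-identical copies, so their split of reads is uncertain. The summed level of the list was 1.13e+04 to 1.19e+04 CPM in hESCs and 1.04e+04 to 1.1e+04 CPM in NMP-L cells. Of the called heat shock genes, 5 moved in the same direction as EGR1 and JUN and 2 the other way. Their part in the members' levels was not tested.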

How the data were processed

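Polyadenylated RNA was sequenced as single-end 76-base reads from 6 libraries. For each gene the authors deposited RSEM expected counts, which are not normalized between libraries, and TPM values, which the authors' RSEM run scaled for transcript length. The submitters' processing notes name cutadapt 1.9.1, STAR 2.5.2a, RSEM 1.3.0, DESeq2 1.12.3 and hg19; the annotation release and strand setting are not given in the sources used here. The study's text describes no RNA-seq test, and no batch is given in the labels.

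Expected counts were rounded and tested in R 4.3.3 with edgeR 4.0.16 (filterByExpr with a minimum count of 10, TMM factors, quasi-likelihood test of condition), with Benjamini-Hochberg adjustment over 15517 genes and a threshold of 0.05. The SE is the size of the log2 fold change over the square root of F. 8.44% of genes had a fractional count, and 0 members did. Single values and shares were compared by two-sided exact permutation tests, for levels on log2(CPM + 0.1), whose smallest p is 0.1. The members and lists were chosen with earlier results of these data known. Named genes are all members, from each list the 3 largest called changes whose mean reached 10 CPM in either condition, NAB1, NAB2, SRF, MYC and EGR4, and the 3 genes nearest FOS, JUN and EGR1 in pattern. Promoters came from RefSeq (GRCh38.p14) and gene positions from GENCODE on GRCh37. The procedure was tested on simulated data. Not every gene of the lists is reported here by name. The alternatives were other size factors, scaling to GAPDH or HPRT1 counts, other filters, DESeq2 1.42.0, limma 3.58.1 on log2(TPM + 0.1), a replicate block, a pseudocount of 1, CPM in place of TPM for shares, and each library left out in turn. Python 3.11.15 and matplotlib 3.10.9 made the tables and plots.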

Additional observations from a re-analysis of the deposited data

How the results depend on the processing

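EGR1 passed the test in 16 of 16 alternative settings and EGR2 in 15 of 15 that could test it; JUN, JUNB and EGR3 lost their calls only relative to GAPDH counts (-0.33, -0.17 and -0.78, adjusted p = 0.0582, 0.376 and 0.0721). FOSB and EGR2 could not be tested with at least 10 counts in every library. The sign turned for FOS relative to HPRT1 counts (-0.17), and for FOSL1 (0.20) and JUND (0.27) relative to GAPDH counts. The number of members called higher, 1 in the reported fit, was 3 relative to GAPDH counts, 0 relative to HPRT1 counts and 0 to 1 with a library left out (0 without NMP-L replicate 2 or hESC replicate 2). The number called lower, 7, was 2 relative to GAPDH counts and 5 to 8 with a library left out. Over the 83 tested genes of the pathway lists, 22 were higher and 34 lower. The higher count was 14 with DESeq2, 45 relative to GAPDH counts, 5 relative to HPRT1 counts and 14 to 20 with a library left out (14 without NMP-L replicate 2 or hESC replicate 3), and the lower count was 14 relative to GAPDH counts and 29 to 35 with a library left out. The cause of these moves was not tested, beyond the shift of the median gene given with the members. Of all calls, 52.1% were higher in the reported fit, 87.5% of 11455 relative to GAPDH counts, 25.3% of 7087 relative to HPRT1 counts, 59.6% with library sizes alone and 61% with limma on TPM. With a pseudocount of 1 the differences of mean log2 CPM shrank for FOSB (-0.47), EGR2 (-1.12) and EGR3 (-0.66).

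Replicate numbers do not pair the libraries by any source, and same-numbered libraries did not deviate together (r across 11663 genes of -0.63, 0.03 and -0.33). With the replicate number as a block, 7560 genes were called, against 8653 without it, 1 member was higher and 6 were lower, since JUND had an adjusted p of 0.0753. Counting depth limits FOSB, EGR2 and EGR3, whose NMP-L libraries held 2 to 18 counts, and 3 libraries a condition limit every interval.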
